A study of Mus musculus with 50 samples.

Results

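The 10 genes described here are Itgb7, Cd48, Tspan13, Tmem178, Rasgrp4, Rab44, Lsp1, Epb4.1l4b, Cp and Tox, 10 of the 33924 gene rows that each of the study's 2 count tables holds. They are coding genes that are seldom discussed with mutant Flt3, and they were chosen because their counts differed between Flt3 mutant and wild-type (WT) progenitors. That difference is therefore given below as a description, with no test. Differences between the second mutations, between cell types of Npm1 Flt3 mice and after deletion of the mutant allele were measured in other libraries and were tested. Changes over the weeks were tested too, but within the Flt3 libraries that served for the choice, so those tests are not independent of it. All 10 genes were found in both tables, and all 10 passed the low-count filter of every comparison. The name under which they were grouped, genes raised by mutant Flt3, holds in both cell types for most of them, but Tspan13 was lower in Flt3 mutant LSK cells and higher only in GMP.

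The study profiled mouse bone marrow progenitors by RNA sequencing. LSK cells are lineage-negative, Sca1-positive, Kit-positive cells that include the blood stem cells, and GMP are the progenitors of granulocytes and monocytes. Both were sorted from mice with an activated Flt3 mutation alone at 2, 4, 6 and 8 weeks (3 libraries for each cell type and week), and from WT mice at 4 weeks (3 libraries for each cell type). LSK and GMP were also sorted from mice that carried mutant Flt3 with an Npm1 mutation (4 libraries each) or with a Dnmt3a mutation (3 libraries each), for which the labels give no week. Lineage-negative stem and progenitor cells (Lin-) came from Npm1 Flt3 mice given tamoxifen (TAM, 3 libraries) or vehicle (3 libraries) for 7 days. In these mice TAM deletes the mutant Flt3 allele through Cre, so the Npm1 mutation was present in the TAM and the vehicle libraries alike. The mutations were switched on with Cre, Dre or Flp recombinase, and mice were taken at the stated week or when they became symptomatic. The labels do not give the promoter that drives any recombinase or the ages of the mice. LSK and GMP libraries often share a library code. By title, Dnmt3a Flt3 LSK replicates 1 and 2 share one, as do GMP replicates 1 and 2. Whether each code is a separate animal is not stated, so p-values measure the spread between these libraries.

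Flt3 is a receptor tyrosine kinase of early blood progenitors, and mutations that keep it active are among the most common lesions of acute myeloid leukaemia. The active receptor signals through STAT5, the Ras and MAP kinase cascade and PI3 kinase. The 10 genes sit at different places in a cell: Itgb7, Cd48 and Tspan13 encode cell surface proteins, Tmem178 a membrane protein of the endoplasmic reticulum, Rasgrp4 and Rab44 regulators or members of the small GTPases, Lsp1 and Epb4.1l4b proteins that join the membrane to actin, Cp a secreted copper enzyme, and Tox a nuclear DNA-binding protein.

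The table of Flt3 mutant and WT libraries was shallow, with 306571 to 8249135 counts in 29 of its 30 libraries. The remaining library, Flt3 GMP at 8 weeks replicate 2, held 1942 counts, and it is left out of every level below, so that this group has 2 values. The table of libraries with a second mutation held 15053592 to 128057407 counts per library. The libraries with a second mutation have no WT counterpart in their own table, and no level is tested across the tables. In 2 Dnmt3a Flt3 libraries the title and the library code name different cell types (LSK replicate 1 and GMP replicate 2). Their summed GMP-sort markers (Mpo, Elane, Ctsg, Fcgr3, Cebpe) sat with their titles, at 3027 to 3741 CPM (counts scaled to one common library total) in the 3 LSK libraries and 46299.5 to 58744 CPM in the 3 GMP libraries, and both were left out of the tests. The library codes of Flt3 mutant mice share one prefix and those of WT mice another, so genotype and library series cannot be told apart. The same holds for the sorted Npm1 Flt3 and Dnmt3a Flt3 libraries, whose codes also differ in prefix.

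Levels in Flt3 mutant and WT progenitors are given as CPM of each library's total. In LSK, 8 of the 10 genes were higher in all 12 Flt3 libraries than in all 3 WT libraries, 1 (Tspan13) was lower, and 1 (Tmem178) overlapped. In GMP, 9 genes were higher in all 11 Flt3 libraries in plain CPM, and 1 (Rab44) overlapped. The separation of Cd48 in GMP depends on the scaling, as given below. Over all genes tested with edgeR, 6.89% were called higher and 8.07% lower in Flt3 LSK, and 13.1% higher and 13.2% lower in Flt3 GMP. With library totals as the only scaling these shares were 4.97% and 11.6% in LSK, and 18.2% and 9.34% in GMP. The members were picked on this contrast, so nothing is read from their count. In bulk libraries such as these, fewer cells of a type and less RNA per cell cannot be told apart.

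**Figure D1:**
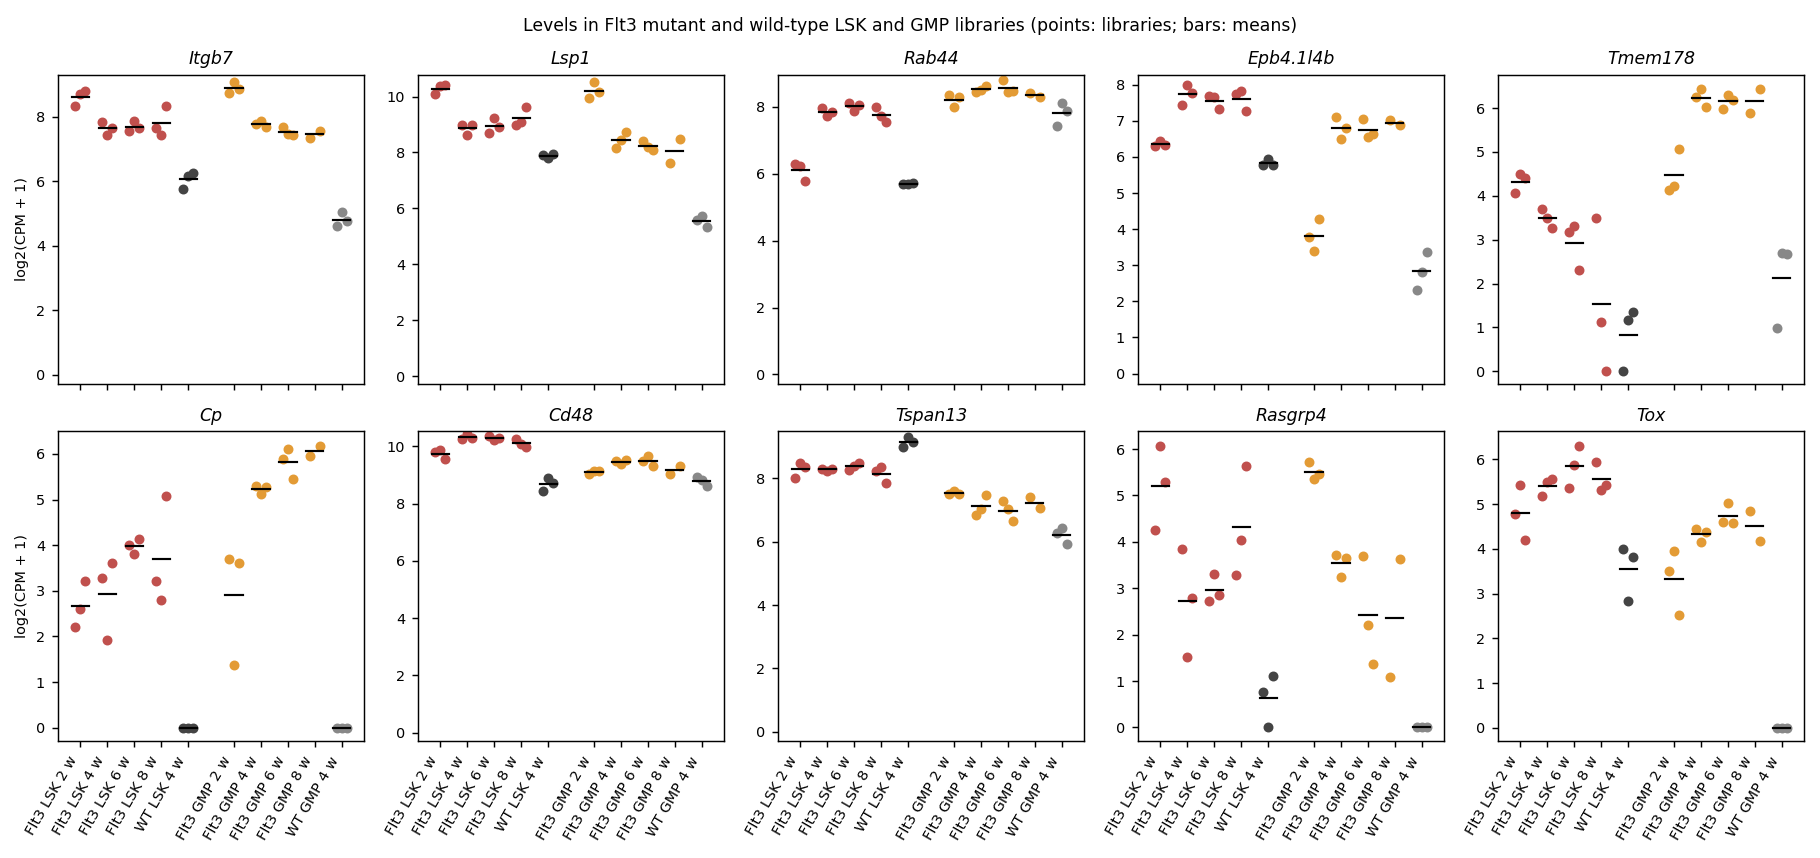
Level of each of the 10 genes as log2(CPM + 1) in every Flt3 mutant and WT library, by cell type and week; points are libraries and bars are means of the plotted values, with 2 libraries in Flt3 GMP at 8 weeks. Cp, Rasgrp4 and Tox lie at 0 in all 3 WT GMP libraries, and Tspan13 is the gene whose Flt3 LSK points lie under the WT LSK points.

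Itgb7 (integrin beta 7; chr15:102215995-102231944, minus strand, GRCm38) encodes the integrin subunit that pairs with alpha 4 or alpha E and is best known for bringing lymphocytes to the gut. In Flt3 LSK it stood at 321, 417 and 448 CPM at 2 weeks, 229, 174.1 and 203 CPM at 4 weeks, 186, 231 and 199 CPM at 6 weeks and 199.9, 171 and 323 CPM at 8 weeks, against 53.7, 70.5 and 74.9 CPM in WT LSK. In Flt3 GMP it stood at 424, 545 and 469 CPM at 2 weeks, 220.1, 234 and 205 CPM at 4 weeks, 205, 175 and 173 CPM at 6 weeks and 161 and 189.6 CPM at 8 weeks, against 23.6, 31.9 and 26.2 CPM in WT GMP. The groups did not overlap, the 2-week libraries were the highest in GMP, and over all weeks the ratio of the Flt3 mean to the WT mean was 3.90 in LSK and 10.0 in GMP. At 4 weeks, the only week with WT libraries, the Flt3 means were 202 CPM in LSK and 220 CPM in GMP. The WT means were 66.4 and 27.2 CPM.

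Cd48 (chr1:171682009-171705258, plus strand, GRCm38) encodes a lipid-anchored SLAM-family surface protein that binds CD244 and is absent from the most primitive mouse stem cells. In Flt3 LSK it stood at 897, 928 and 751 CPM at 2 weeks, 1234, 1369 and 1260.0 CPM at 4 weeks, 1309, 1179 and 1263 CPM at 6 weeks and 1229, 1078 and 1014 CPM at 8 weeks, against 349, 479.7 and 418 CPM in WT LSK. In GMP the range was 522 to 818 CPM over the 11 Flt3 libraries and 392 to 488 CPM over the 3 WT libraries. Flt3 LSK thus lay well above WT LSK at every week, with a ratio of means of 2.71, while the GMP ranges were close, with a ratio of 1.45. The GMP separation rests on plain CPM. Under TMM, edgeR's scaling, the highest WT library (488 CPM) had a factor of 0.827. The lowest Flt3 library (522 CPM) had a factor of 0.981. Divided by these factors, that WT library lies above that Flt3 library.

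Tspan13 (chr12:36014557-36042500, minus strand, GRCm38) encodes a tetraspanin, one of a family of proteins that cross the membrane 4 times and gather other proteins into patches. It is the member whose difference changed direction between the cell types. In LSK it ranged from 228 to 359.7 CPM over the 12 Flt3 libraries, against 509, 633 and 569.6 CPM in the WT libraries. In GMP it ranged from 98.6 to 192 CPM over the 11 Flt3 libraries, against 76.9, 85.6 and 60.4 CPM in the WT libraries. Every Flt3 LSK library lay below every WT LSK library (ratio of means 0.544), and every Flt3 GMP library lay above every WT GMP library (ratio 2.02). The drop between the cell types was therefore smaller in the mutant: Flt3 LSK means stood at 313, 309.8, 333 and 285 CPM at 2, 4, 6 and 8 weeks beside Flt3 GMP means of 183, 139.7, 127 and 151 CPM, whereas WT means stood at 571 CPM in LSK and 74.3 CPM in GMP.

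Tmem178 (chr17:80944632-81001816, plus strand, GRCm38) encodes an endoplasmic reticulum membrane protein that, in mouse, restrains calcium signals during osteoclast formation. In Flt3 GMP it stood at 16.7, 17.6 and 32.7 CPM at 2 weeks, 75.1, 85.5 and 64.1 CPM at 4 weeks, 61.9, 78.0 and 71.6 CPM at 6 weeks and 57.8 and 85.9 CPM at 8 weeks, against 0.985, 5.48 and 5.37 CPM in WT GMP. In Flt3 LSK it stood at 15.7, 21.7 and 20.1 CPM at 2 weeks, 12.0, 10.3 and 8.58 CPM at 4 weeks, 8.06, 8.87 and 3.92 CPM at 6 weeks and 10.2, 1.19 and 0 CPM at 8 weeks, against 0, 1.24 and 1.54 CPM in WT LSK. The GMP groups were apart (ratio of means 14.9), while in LSK 2 of the 8-week libraries fell within the WT range. The value of 0 belongs to the shallowest library, in which 3 counts equal 9.79 CPM, so a count of 0 there allows a level up to that figure (counting error only).

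Rasgrp4 (chr7:29134851-29153961, plus strand, GRCm38) encodes a diacylglycerol-responsive exchange factor that loads Ras with GTP and is otherwise known from mast cells and myeloid cells. In Flt3 GMP it stood at 51.7, 40.0 and 43.0 CPM at 2 weeks, 12.2, 8.43 and 11.6 CPM at 4 weeks, 11.9, 3.63 and 1.59 CPM at 6 weeks and 1.11 and 11.4 CPM at 8 weeks, against no count in any WT GMP library. In Flt3 LSK it stood at 18.1, 66.5 and 38.4 CPM at 2 weeks, 13.4, 1.87 and 5.94 CPM at 4 weeks, 5.61, 8.87 and 6.27 CPM at 6 weeks and 8.71, 15.4 and 48.9 CPM at 8 weeks, against 0.702, 0 and 1.15 CPM in WT LSK. The Flt3 libraries varied widely within a week, with replicate 3 of the 8-week LSK libraries at the height of the 2-week ones. Over all weeks the ratio of means was 32.1 in LSK, where WT held 5 counts in all. In GMP the Flt3 mean was at least 26.9-fold higher than the 0.664 CPM that 3 counts over the 3 WT libraries would give. At 4 weeks the Flt3 means were lower, 7.06 CPM in LSK and 10.7 CPM in GMP, beside a WT LSK mean of 0.618 CPM.

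Rab44 (chr17:29114145-29148980, plus strand, GRCm38) encodes one of the large Rab GTPases, which carry calcium-binding EF hands and have been linked in mouse to granule secretion and osteoclasts. In Flt3 LSK it stood at 77.4, 73.7 and 54.0 CPM at 2 weeks, 249.8, 212 and 231 CPM at 4 weeks, 275, 236 and 266 CPM at 6 weeks and 253, 212 and 186 CPM at 8 weeks, against 51.2, 50.7 and 51.9 CPM in WT LSK. In GMP the range was 256 to 448 CPM over the Flt3 libraries and 171 to 279 CPM over the WT libraries. The 2-week Flt3 LSK libraries sat just above WT, and those of 4 to 8 weeks sat far above both. In GMP 10 of the 11 Flt3 libraries exceeded the highest WT library, with a ratio of means of 1.52 there and 3.78 in LSK.

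Lsp1 (chr7:142460809-142494867, plus strand, GRCm38) encodes a leukocyte protein that binds filamentous actin. Flt3 LSK held 1080.5, 1316 and 1358 CPM at 2 weeks, 498, 395 and 506 CPM at 4 weeks, 418, 598 and 480.4 CPM at 6 weeks and 502, 542 and 783 CPM at 8 weeks, against 238, 223 and 243 CPM in WT LSK. Flt3 GMP held 982, 1475 and 1153 CPM at 2 weeks, 287, 352 and 423 CPM at 4 weeks, 339.5, 296 and 272 CPM at 6 weeks and 198 and 359 CPM at 8 weeks, against 47.3, 51.8 and 39.6 CPM in WT GMP. The 2-week libraries were the highest in both cell types and no Flt3 library reached down to WT. Over all weeks the ratio of means was 3.01 in LSK and 12.1 in GMP. At 4 weeks the Flt3 means were 466 CPM in LSK and 354 CPM in GMP, beside WT means of 235 and 46.2 CPM.

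Epb4.1l4b (chr4:56991972-57143437, minus strand, GRCm38, annotated there as Epb41l4b) encodes a FERM-domain protein of the protein 4.1 family, which ties membrane proteins to the cytoskeleton. In Flt3 GMP it stood at 12.6, 9.61 and 18.4 CPM at 2 weeks, 138, 89.1 and 111 CPM at 4 weeks, 131, 92.5 and 98.6 CPM at 6 weeks and 128 and 117 CPM at 8 weeks, against 3.94, 5.97 and 9.39 CPM in WT GMP. In LSK the 2-week Flt3 libraries held 77.4, 85.3 and 79.6 CPM and those of 4 to 8 weeks 153 to 255 CPM, against 53.7, 60.6 and 53.4 CPM in WT. In both cell types the 2-week libraries lay between WT and the later weeks. The ratio of means was 3.05 in LSK and 13.4 in GMP.

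Cp (chr3:19957054-20009145, plus strand, GRCm38) encodes ceruloplasmin, the copper-carrying ferroxidase that the liver secretes into plasma and that other cells also make in a membrane-anchored form. No WT library of either cell type held a Cp count. Flt3 GMP held 12.1, 1.60 and 11.3 CPM at 2 weeks, 38.4, 33.7 and 37.8 CPM at 4 weeks, 58.5, 68.0 and 42.9 CPM at 6 weeks and 61.2 and 71.7 CPM at 8 weeks. Flt3 LSK held 3.63, 5.06 and 8.23 CPM at 2 weeks, 8.68, 2.81 and 11.2 CPM at 4 weeks, 15.1, 12.9 and 16.5 CPM at 6 weeks and 8.33, 5.93 and 32.6 CPM at 8 weeks. Every Flt3 library held at least 1 Cp count, and the levels were lowest at 2 weeks in GMP. Against the CPM that 3 counts over the WT libraries would give, the Flt3 mean was at least 22.8-fold higher in LSK and at least 59.8-fold higher in GMP.

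Tox (chr4:6686353-6991557, minus strand, GRCm38) encodes a nuclear protein with an HMG box that is needed for T-cell development and marks exhausted T cells. In Flt3 GMP it stood at 10.3, 14.4 and 4.73 CPM at 2 weeks, 21.0, 16.9 and 19.97 CPM at 4 weeks, 23.3, 31.7 and 23.1 CPM at 6 weeks and 27.8 and 17.0 CPM at 8 weeks, against no count in any WT GMP library. In Flt3 LSK the range was 17.4 to 78.4 CPM, against 15.1, 6.18 and 13.1 CPM in WT LSK. The lowest Flt3 LSK library, at 2 weeks, lay just above the highest WT library. The ratio of means was 3.86 in LSK, and in GMP the Flt3 mean was at least 28.8-fold higher than the level that 3 counts over the WT libraries would give.

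Reads from an overlapping gene on the other strand could enter the counts of 3 members, because it is not stated whether the counting used strand. Exons of Cp overlap Hps3, which stood at 12.2 to 38.4 CPM in Flt3 GMP and 9.46 to 14.8 CPM in WT GMP, where Cp had no count. Exons of Rasgrp4 overlap Fam98c, at 0 to 3.63 CPM in Flt3 GMP and 0 in WT GMP, and the antisense gene Gm16282. Exons of Tox overlap the antisense gene Gm11802, which had no count in these libraries. How the reads of these pairs were divided was not tested.

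The sequences before the start sites were compared because the members differ in their WT level. Cp had no WT count, and Cd48 had at least 349 CPM in each WT library. Tmem178, at 0 to 5.48 CPM in WT libraries, lay close to Cp. RefSeq promoter windows (GRCm38.p6, 250 bases before to 50 after the start) were found for 6 of the 10 genes, in 7 windows because Cp has 2 starts. The 100 bases upstream of the start are shown 5′ to 3′ on the plus strand, with CG dinucleotides in capitals, for Cd48 at chr1:171681892-171681991, Cp at chr3:19956954-19957053 and Tmem178 at chr17:80944532-80944631.
Cd48: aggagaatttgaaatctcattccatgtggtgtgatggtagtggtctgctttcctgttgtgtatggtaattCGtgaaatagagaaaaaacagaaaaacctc
Cp: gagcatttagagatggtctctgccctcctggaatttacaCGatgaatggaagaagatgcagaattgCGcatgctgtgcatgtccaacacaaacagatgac
Tmem178: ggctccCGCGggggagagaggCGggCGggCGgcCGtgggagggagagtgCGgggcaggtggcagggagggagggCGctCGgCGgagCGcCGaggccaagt
The stretch of Tmem178 holds 12 CG dinucleotides, that of Cp 2 and that of Cd48 1. In the whole 300-base windows Epb4.1l4b had 58 CG dinucleotides, more than 99.9% of the 32851 windows in the table, Tmem178 had 37 (more than 94.4%), Tspan13 had 26 (more than 83.1%), Cd48 had 7, Itgb7 had 5, and the starts of Cp had 2 and 4. The STAT motif TTCNNNGAA, read on both strands, was in 0 of the 7 windows and in 8.30% of all windows. The PU.1 core GAGGAA was in the Itgb7 window and in 28.3% of all windows, and the RUNX core TGTGGT was in the Cd48 window and in 16.8% of all. TATAAA was in the window of the second Cp start and in 13.6% of all windows. These are letter matches in short windows, and the 6 genes with windows share none of the motifs searched. Lsp1, Rab44, Rasgrp4 and Tox had no matched window and were not searched.

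By the ranges of their libraries, members showed 2 patterns over time after Flt3 activation in GMP. Itgb7, Lsp1, Tspan13 and Rasgrp4 were higher in all 3 libraries of 2 weeks than in the 8 libraries of 4 to 8 weeks, and Epb4.1l4b, Tmem178, Cp and Tox were lower in all 3. Rab44 and Cd48 overlapped. In LSK only Lsp1 and Tmem178 were wholly higher at 2 weeks and Rab44, Epb4.1l4b and Cd48 wholly lower. The share of all genes set apart in this way was not counted, so nothing is read from the number of members.

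The slope of log2 expression per week was fitted with edgeR over the 12 Flt3 libraries of each cell type, which in GMP include the near-empty one. In GMP 6 of the 10 members passed Benjamini-Hochberg adjustment at 0.05, 2 with a positive slope and 4 with a negative one, where 2.9% of all genes had a called positive and 9.27% a called negative slope. Cp rose by 0.39 ± 0.06 (SE, adjusted p = 8.50e-05) and Tmem178 by 0.18 ± 0.06 (SE, adjusted p = 0.0478) per week. Rasgrp4 fell, with a slope of -0.61 ± 0.11 (SE, adjusted p = 0.000955), as did Lsp1 at -0.43 ± 0.08 (SE, adjusted p = 0.00332), Itgb7 at -0.31 ± 0.05 (SE, adjusted p = 6.55e-05) and Tspan13 at -0.12 ± 0.04 (SE, adjusted p = 0.0403). The exchange factor, the actin-binding protein and the integrin subunit thus declined with time in edgeR's test while ceruloplasmin increased. Epb4.1l4b, at 0.36 ± 0.12 (SE, adjusted p = 0.0774), and Tox, at 0.19 ± 0.08 (SE, adjusted p = 0.11), did not pass, and the slopes of Rab44 (-0.04 ± 0.04) and Cd48 (-0.05 ± 0.04) were near 0.

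The GMP slopes rest on the 2-week libraries: without them none of the 10 members passed in edgeR (1 at an unadjusted p under 0.05), and the slope of Cp was 0.21 (adjusted p = 0.259). Tmem178 and Tspan13 also lost their calls when any one of several single libraries was left out, the near-empty one included for Tmem178. With library totals as the only scaling, 14.1% of all genes had a called positive slope and 6.34% a called negative one. Cp, Itgb7, Lsp1, Rasgrp4 and Tmem178 passed in the same direction, Epb4.1l4b and Tox also passed, and Tspan13 did not.

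**Figure D2:**
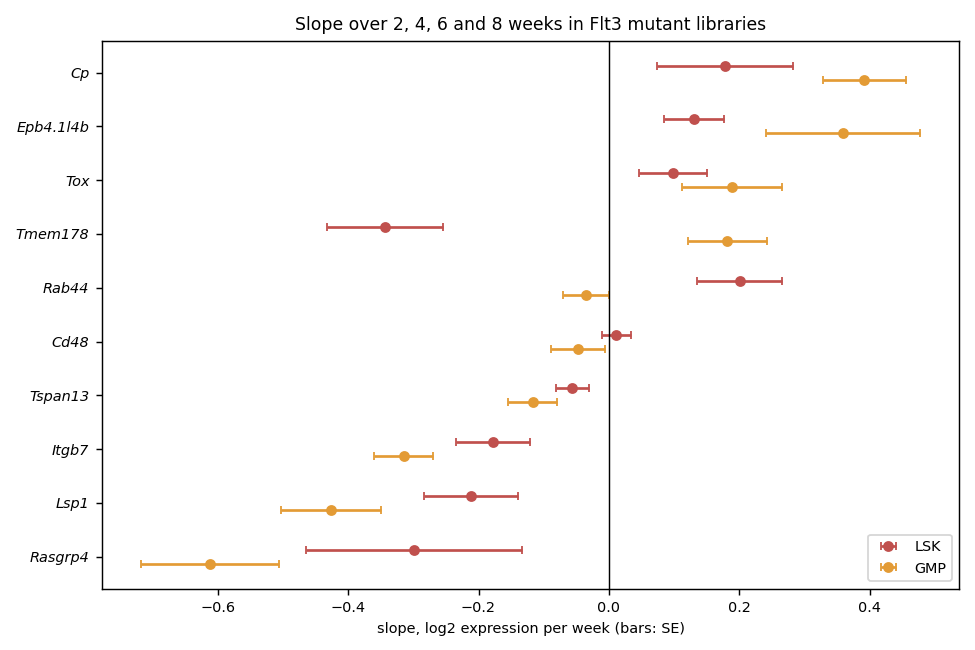
Fitted slope of log2 expression per week over the Flt3 mutant libraries, one pair of points for each gene (LSK and GMP), with bars for the standard error. Tmem178 is the gene whose slope is negative in LSK and positive in GMP.

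In LSK, Tmem178 alone passed, with a slope of -0.34 ± 0.09 (SE, adjusted p = 0.0399) in edgeR's test, where 1.98% of all genes had a called negative and 0.722% a called positive slope (1.27% and 2.19% with library totals alone). That call was lost in 7 of 12 fits that left out 1 library, and with library totals alone. Tmem178 was also the 1 member whose slope differed between the cell types: the LSK slope minus the GMP slope was -0.52 ± 0.11 (SE, adjusted p = 0.00611, edgeR, 92 of 9890 genes passing). LSK and GMP libraries with one library code were treated as separate in that fit. It was run once, with the near-empty and the 2-week libraries included, so how far the difference rests on them was not tested. For the other 9 the difference did not pass, which does not show that their slopes were equal.

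Markers of other cell types moved with the 2-week libraries. The 8 basophil and mast cell markers summed to 57512 to 70848 CPM in Flt3 GMP at 2 weeks, 326 to 1092 CPM at 4 to 8 weeks and 1289 to 1604 CPM in WT GMP. All 8 were detected at 2 weeks in GMP, and Il4 on this list was at 0 at 6 weeks. The 8 dendritic cell markers, MHC class II gene H2-Ab1 among them, summed to 11359 to 16776 CPM in Flt3 GMP at 2 weeks, 558 to 2326 CPM at 4 to 8 weeks and 73.2 to 93.6 CPM in WT GMP, where Cd209a and Zbtb46 were at 0. In Flt3 LSK they summed to 7102 to 12994 CPM at 2 weeks and 924 to 7603 CPM at 4 to 8 weeks, against 189 to 297 CPM in WT LSK. The part of these cells in the members' levels was not tested.

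The genes most like each member were found by Pearson correlation of log2(CPM + 1) over the 29 WT and Flt3 libraries, among 7657 named genes with a mean of at least 10 CPM. The libraries share cell types, weeks and genotype, so the coefficients describe likeness of pattern. Itgb7 was nearest to H2-Aa (r = 0.966), Cd74 (r = 0.964) and Fgd2 (r = 0.963), Lsp1 to H2-Eb1 (r = 0.963), H2-Aa (r = 0.960) and H2-Ab1 (r = 0.954), and Rasgrp4 to H2-Ab1 (r = 0.953), Id2 (r = 0.949) and Naaa (r = 0.947). H2-Aa, H2-Ab1, H2-Eb1 and Cd74 encode the MHC class II chains and their chaperone, so all 3 of these members lay close to the antigen presentation genes. Tox was nearest to Dusp5 (r = 0.960), Socs2 (r = 0.949) and Cish (r = 0.925), of which Socs2 and Cish encode cytokine feedback inhibitors and Dusp5 a MAP kinase phosphatase. Cp was nearest to Rogdi (r = 0.889), Scpep1 (r = 0.887) and Klrb1f (r = 0.886), Tmem178 to Slc2a6 (r = 0.896), Bid (r = 0.845) and Lpxn (r = 0.813), and Epb4.1l4b to St3gal2 (r = 0.943), Mndal (r = 0.924) and Dck (r = 0.923). Cd48 was nearest to Gldc (r = 0.908), Socs1 (r = 0.874) and Cd6 (r = 0.869), Tspan13 to Gimap1 (r = 0.903), Pde4b (r = 0.891) and Pglyrp2 (r = 0.882), and Rab44 to Cst7 (r = 0.851), Cd300lb (r = 0.845) and Lta4h (r = 0.830).

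Levels with and without the mutant allele were compared in the Lin- cells of Npm1 Flt3 mice. Markers of cell types moved with TAM too, as given below. A change within cells and a change in the mix of cells therefore cannot be told apart here. In edgeR's test 7 of the 10 members were lower after TAM, where 21.3% of all genes were called lower and 10.1% higher. The other 3 did not pass. Tmem178, Rab44, Cp and Epb4.1l4b fell most. Flt3 itself stood at 121, 183 and 83.3 CPM in TAM libraries and 209, 181 and 160.1 CPM in vehicle libraries; these ranges overlap. In edgeR its log2 change was -1.68 ± 0.39 (SE, adjusted p = 0.00126) with TMM and -0.50 (adjusted p = 0.109) with library totals alone, and gene counts do not separate the mutant from the normal allele.

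Tmem178 fell to 1.99, 0.768 and 0.927 CPM in TAM libraries, against 19.0, 42.0 and 32.8 CPM in vehicle libraries, a log2 change of -6.05 ± 0.54 (SE, adjusted p = 4.90e-09). Rab44 fell to 23.1, 32.6 and 31.1 CPM in TAM libraries, against 243, 301 and 256 CPM in vehicle libraries, a log2 change of -4.45 ± 0.43 (SE, adjusted p = 1.11e-08). Cp fell to 41.5, 33.1 and 60.6 CPM in TAM libraries, against 338, 384 and 349.6 CPM in vehicle libraries, a log2 change of -4.25 ± 0.42 (SE, adjusted p = 1.63e-08). For these 3 genes the lowest vehicle library lay several-fold above the highest TAM library. Epb4.1l4b fell to 24.1, 12.3 and 21.4 CPM in TAM libraries, against 58.6, 144 and 106 CPM in vehicle libraries, a log2 change of -3.79 ± 0.46 (SE, adjusted p = 8.14e-07), with its groups apart as well.

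The surface ligand Cd48 and the nuclear factor Tox fell less. Cd48 stood at 491, 532 and 567 CPM in TAM libraries and 643, 892 and 906 CPM in vehicle libraries, a log2 change of -1.88 ± 0.39 (SE, adjusted p = 0.000313) in edgeR's fit. Tox stood at 35.9, 27.6 and 40.0 CPM in TAM libraries and 54.6, 53.6 and 57.0 CPM in vehicle libraries, a log2 change of -1.91 ± 0.37 (SE, adjusted p = 0.00015) in the same fit. Neither overlapped between groups, but their CPM ratios, 0.652 and 0.626, are far milder than the fitted changes, because the fit also scales libraries with TMM factors of 1.32 to 1.67 for TAM and 0.476 to 0.865 for vehicle. Itgb7 stood at 87.5, 202 and 87.4 CPM in TAM libraries and 184, 137 and 101 CPM in vehicle libraries. These overlap, and its fitted change of -1.30 ± 0.41 (SE, adjusted p = 0.0159) in edgeR lost its call without TAM replicate 1, TAM replicate 3 or vehicle replicate 2 (adjusted p 0.131, 0.142 and 0.0953).

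Lsp1, Rasgrp4 and Tspan13 went the other way in plain CPM. Lsp1 stood at 1539, 1753 and 1555 CPM in TAM libraries and 1083, 819 and 792 CPM in vehicle libraries, Rasgrp4 at 39.2, 46.2 and 41.4 CPM in TAM and 16.1, 9.09 and 10.4 CPM in vehicle libraries, and Tspan13 at 148, 282 and 196 CPM in TAM and 59.8, 48.4 and 39.6 CPM in vehicle libraries. All 3 TAM libraries exceeded all 3 vehicle libraries for each of them. In edgeR's test with TMM none passed: the log2 changes were -0.33 ± 0.36 (SE, adjusted p = 0.447) for Lsp1, 0.70 ± 0.37 (SE, adjusted p = 0.137) for Rasgrp4 and 0.92 ± 0.38 (SE, adjusted p = 0.0631) for Tspan13. With the replicate number as a block, which pairs libraries of different codes, Tspan13 passed in edgeR, at 0.87 (adjusted p = 0.0193). It also passed without any one of 3 single libraries.

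The scaling sets where zero lies in this comparison. The median gene changed by 0.56 on the log2 scale with TMM, by 0.30 with median-ratio size factors and by 1.64 with library totals alone, and under library totals 8.33% of genes were called lower and 36.8% higher. Rab44, Cp, Tmem178, Epb4.1l4b, Cd48 and Tox were lower and passed in edgeR under all 3 scalings. With library totals Itgb7 changed by -0.16 (adjusted p = 0.667), while Lsp1 was higher by 0.85 (adjusted p = 0.00369), Rasgrp4 by 1.84 (adjusted p = 0.00167) and Tspan13 by 2.09 (adjusted p = 0.000314). Relative to the median gene of its own scaling, Cp changed by -4.81, -4.97 and -4.62 under TMM, median-ratio and library totals. Itgb7 changed by -1.87, -1.97 and -1.80 on the same basis, Lsp1 by -0.90, -1.01 and -0.79, and Tspan13 by 0.36, 0.24 and 0.45.

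**Figure D3:**
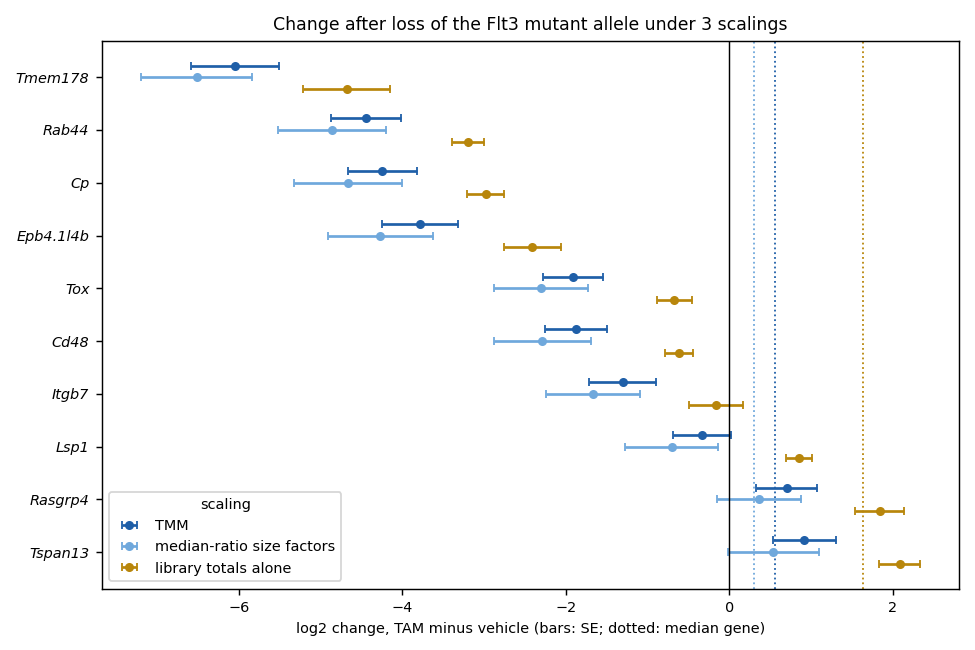
Log2 change of each gene in TAM minus vehicle Lin- libraries (3 each) under TMM, median-ratio and library-total scaling, with bars for the standard error and dotted lines for the median gene of each scaling. Tmem178, Rab44, Cp and Epb4.1l4b lie far left of 0 under all 3, and Lsp1 crosses 0 between TMM (-0.33) and library totals (0.85).

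The cell types in the Lin- libraries also moved with TAM. The GMP-sort markers summed to 533 to 801 CPM in TAM libraries and 3442 to 4291 CPM in vehicle libraries, and the LSK-sort markers (Ly6a, Kit, Hlf, Mecom, Mllt3) to 262 to 718 CPM in TAM and 43.7 to 76.1 CPM in vehicle libraries. Dendritic cell markers summed to 10499.8 to 13639.9 CPM in TAM libraries and 769 to 1815 CPM in vehicle libraries, late neutrophil markers to 1081 to 1422 CPM in TAM and 28.1 to 50.2 CPM in vehicle libraries, and macrophage markers to 809 to 1226 CPM in TAM and 269 to 363 CPM in vehicle libraries. Every marker of these 5 lists was detected in TAM and in vehicle libraries. Their part in the members' changes was not tested.

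**Figure D4:**
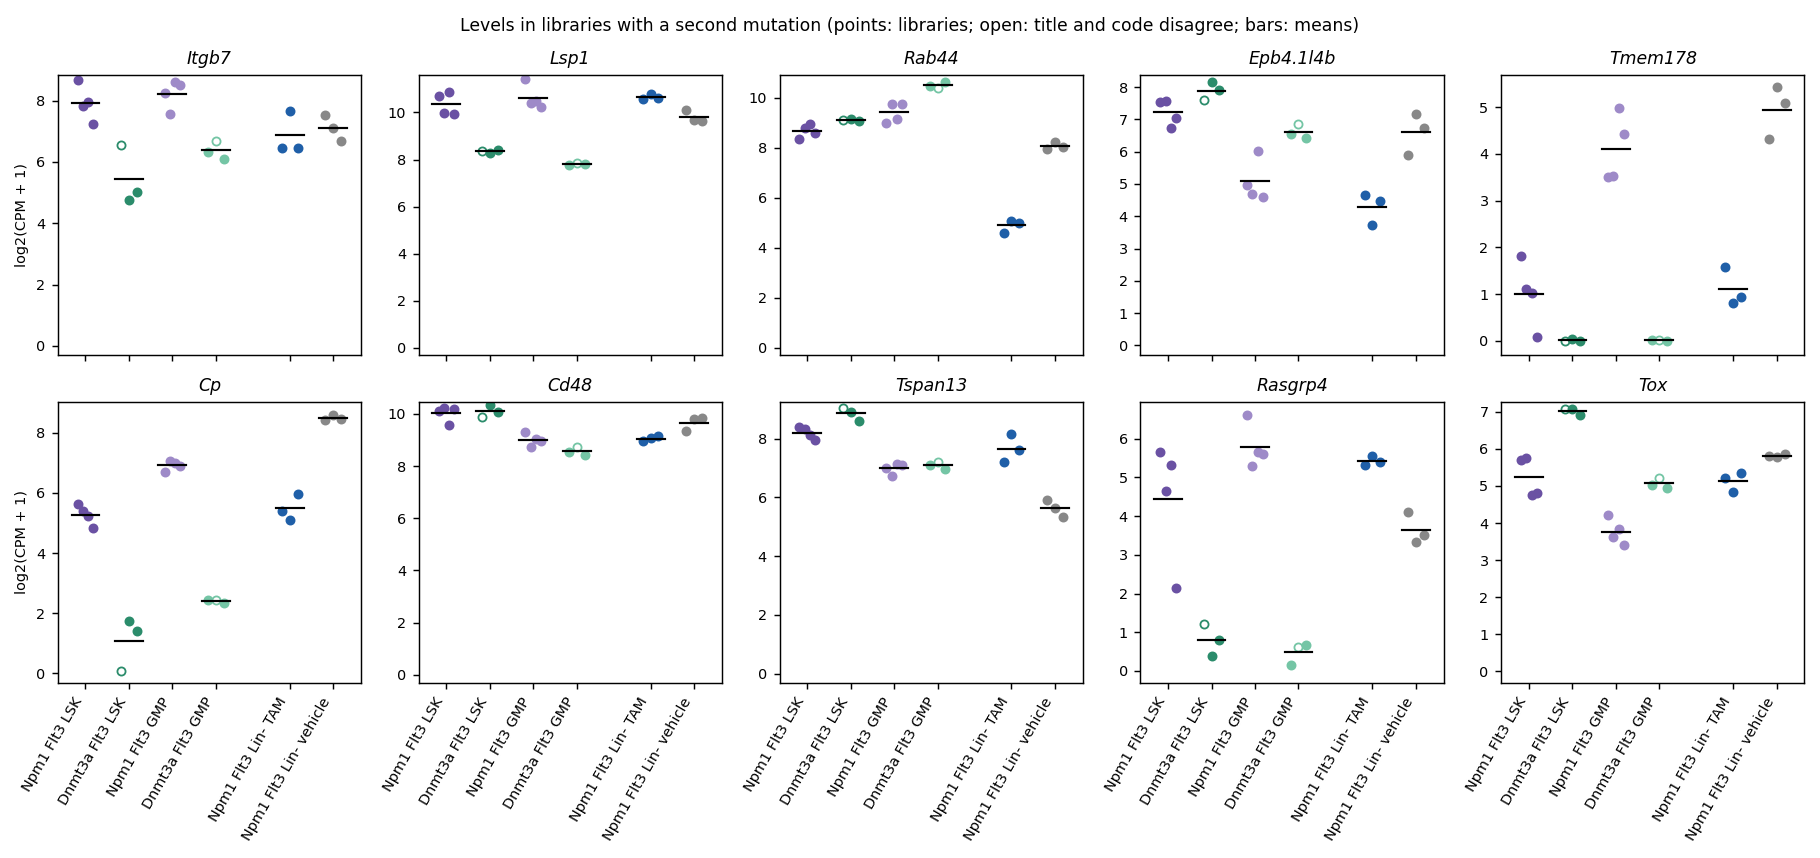
Level of each gene as log2(CPM + 1) in sorted Npm1 Flt3 and Dnmt3a Flt3 libraries and in Lin- libraries of Npm1 Flt3 mice after TAM or vehicle; points are libraries, open points are the 2 Dnmt3a Flt3 libraries whose title and code disagree, and bars are means of the plotted values. In LSK and in GMP, every Npm1 Flt3 point of Cp and Rasgrp4 lies above every Dnmt3a Flt3 point, and every Npm1 Flt3 point of Tox lies below every Dnmt3a Flt3 point.

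Between the second mutations, Cp, Itgb7, Lsp1 and Rasgrp4 were higher and Tox lower in Npm1 Flt3 than in Dnmt3a Flt3, in LSK and in GMP. With edgeR, 4 members were called higher and 1 lower in LSK, where 7.8% and 3.76% of all genes were. In GMP 5 were called higher and 3 lower, where 12.5% and 8.22% of all genes were. The tests set 4 Npm1 Flt3 libraries against the 2 Dnmt3a Flt3 libraries whose codes match their titles, and the values of the third are printed with the others. Codes of the Npm1 Flt3 and Dnmt3a Flt3 libraries differ in prefix, so the second mutation and the library series cannot be told apart.

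Cp stood at 48.9, 41.5, 36.6 and 27.2 CPM in Npm1 Flt3 LSK and 0.0522, 2.34 and 1.65 CPM in Dnmt3a Flt3 LSK, the first of these being the library of conflicting code. The log2 change was 4.29 ± 0.42 (SE, adjusted p = 0.000638) in edgeR. In GMP it stood at 103, 131, 126 and 119 CPM in Npm1 Flt3 and 4.45, 4.45 and 4.03 CPM in Dnmt3a Flt3, a log2 change of 4.78 ± 0.22 (SE, adjusted p = 0.000158). Ceruloplasmin RNA thus differed more than 10-fold between the mutants in both cell types, with narrow spread in GMP, and both calls held in every fit that left out 1 library.

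Itgb7 stood at 403, 225, 245 and 149 CPM in Npm1 Flt3 LSK and 92.2, 26.2 and 31.4 CPM in Dnmt3a Flt3 LSK, a log2 change of 3.15 ± 0.36 (SE, adjusted p = 0.00124) in edgeR. In GMP it stood at 305, 186, 387 and 362 CPM in Npm1 Flt3 and 79.7, 103 and 67.8 CPM in Dnmt3a Flt3, a log2 change of 2.03 ± 0.30 (SE, adjusted p = 0.00435). The Dnmt3a Flt3 LSK library of conflicting code was the highest of its group and still below every Npm1 Flt3 LSK library.

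Lsp1 stood at 1652, 1019, 1889 and 962 CPM in Npm1 Flt3 LSK and 332, 309.7 and 337 CPM in Dnmt3a Flt3 LSK, a log2 change of 2.13 ± 0.35 (SE, adjusted p = 0.00547) in edgeR. In GMP it stood at 2748, 1340.4, 1426 and 1183 CPM in Npm1 Flt3 and 217, 229 and 224 CPM in Dnmt3a Flt3, a log2 change of 2.89 ± 0.40 (SE, adjusted p = 0.00343). The Npm1 Flt3 libraries spread over a wide range, the Dnmt3a Flt3 libraries over a narrow one, and the groups were apart in both cell types. The LSK call was lost without Dnmt3a Flt3 replicate 2 or replicate 3, each of which leaves 1 Dnmt3a Flt3 library that is assumed to vary like the other group (largest adjusted p = 0.0607).

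Rasgrp4 stood at 49.9, 24.2, 38.7 and 3.40 CPM in Npm1 Flt3 LSK and 1.33, 0.296 and 0.732 CPM in Dnmt3a Flt3 LSK, a log2 change of 5.80 ± 1.06 (SE, adjusted p = 0.00847) in edgeR. In GMP it stood at 97.6, 38.1, 49.0 and 47.4 CPM in Npm1 Flt3 and 0.103, 0.532 and 0.592 CPM in Dnmt3a Flt3, a log2 change of 7.28 ± 0.86 (SE, adjusted p = 0.00206). The Dnmt3a Flt3 levels rest on 67 counts in LSK and 73 counts in GMP over the libraries tested, and Npm1 Flt3 LSK replicate 4 was far below its group. The LSK call was lost without Dnmt3a Flt3 LSK replicate 2 (adjusted p = 0.0708).

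Tmem178 stood at 10.3, 10.5, 30.8 and 20.4 CPM in Npm1 Flt3 GMP, against 2 counts in all over the 3 Dnmt3a Flt3 GMP libraries. The call passed in edgeR (adjusted p = 0.000947), but the fitted fold depends on the prior count. Pooled over the libraries tested, 8067 counts in Npm1 Flt3 GMP stand against 1 count in Dnmt3a Flt3 GMP, and the exact 95% interval of the ratio runs from 657 to 144537, which covers counting error only. In LSK Tmem178 stood at 2.50, 1.17, 1.04 and 0.0620 CPM in Npm1 Flt3, and Dnmt3a Flt3 held 2 counts in all. The pooled ratio there was 74.6 (exact 95% counting interval 20.5 to 618), and the difference did not pass in edgeR (adjusted p = 0.095).

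Tox was the clearest member in the other direction. It stood at 51.1, 52.8, 26.0 and 26.9 CPM in Npm1 Flt3 LSK and 133, 134 and 121 CPM in Dnmt3a Flt3 LSK, a log2 change of -1.70 ± 0.29 (SE, adjusted p = 0.00662) in edgeR. In GMP it stood at 17.6, 11.3, 13.3 and 9.55 CPM in Npm1 Flt3 and 31.9, 36.3 and 30.1 CPM in Dnmt3a Flt3, a log2 change of -1.29 ± 0.30 (SE, adjusted p = 0.0219). The groups were apart in both cell types, and both calls were lost when either Dnmt3a Flt3 library of the fit was left out (largest adjusted p 0.106 in LSK and 0.139 in GMP).

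Rab44 stood at 509.5, 849, 565 and 866 CPM in Npm1 Flt3 GMP and 1416, 1355 and 1578 CPM in Dnmt3a Flt3 GMP, a log2 change of -1.14 ± 0.24 (SE, adjusted p = 0.0145) in edgeR. Epb4.1l4b stood at 30.6, 25.01, 64.5 and 23.2 CPM in Npm1 Flt3 GMP and 92.1, 116 and 85.1 CPM in Dnmt3a Flt3 GMP, a log2 change of -1.35 ± 0.40 (SE, adjusted p = 0.0498). Both were lower in GMP with the Npm1 mutation and did not overlap. Rab44 lost its call when either Dnmt3a Flt3 library was left out, and Epb4.1l4b in 5 of 6 such fits. In LSK their differences, -0.37 ± 0.27 (SE, adjusted p = 0.437) for Rab44 and -0.77 ± 0.25 (SE, adjusted p = 0.0701) for Epb4.1l4b, did not pass. Cd48 and Tspan13 did not pass in either cell type: Cd48 differed by -0.13 ± 0.26 in LSK and 0.51 ± 0.18 in GMP, and Tspan13 by -0.52 ± 0.22 in LSK and -0.09 ± 0.16 in GMP (SE).

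**Figure D5:**
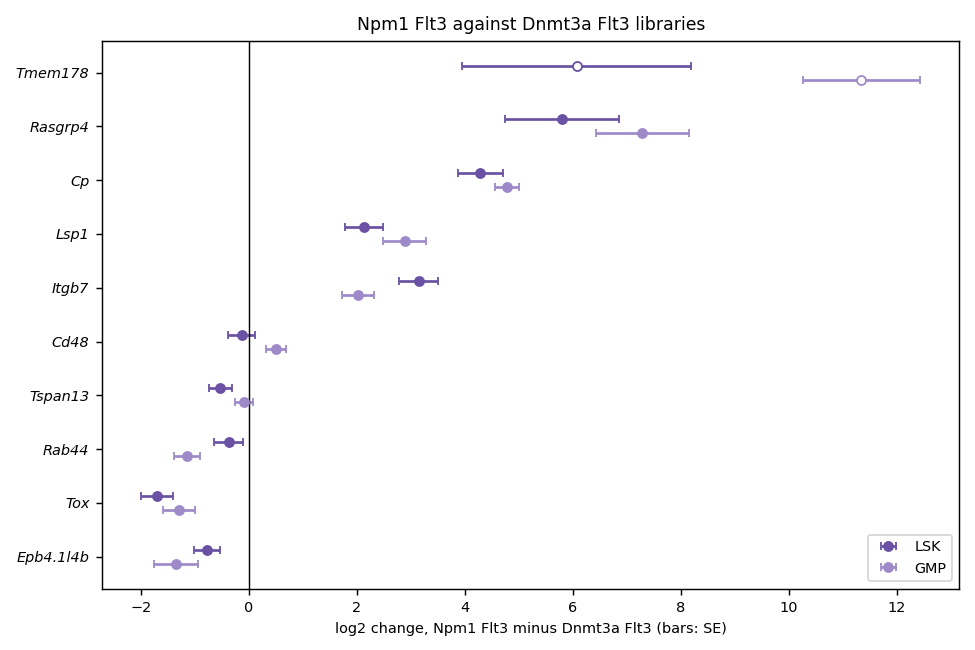
Log2 change of each gene in Npm1 Flt3 minus Dnmt3a Flt3 libraries, for LSK and GMP (4 against 2 libraries each), with bars for the standard error. The open points of Tmem178 mark fitted values that depend on the prior count because Dnmt3a Flt3 held at most 2 counts; Rasgrp4, Cp, Lsp1 and Itgb7 lie right of 0 and Tox left of it in both cell types.

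None of the 10 members passed a test of whether this change differed between LSK and GMP (edgeR, 58 of 21227 genes passing). Of the members, 3 had an unadjusted p under 0.05, and not passing does not show that the changes were equal. Flt3 counts were themselves higher in Npm1 Flt3, at 348, 234, 404 and 459.9 CPM in GMP against 113, 126 and 74.9 CPM in Dnmt3a Flt3 GMP (log2 change 1.90 ± 0.30 (SE, adjusted p = 0.0055)), and at 674, 530.3, 410.1 and 523 CPM in LSK against 415, 135 and 224 CPM in Dnmt3a Flt3 LSK (log2 change 1.60 ± 0.29 (SE, adjusted p = 0.00817)), where the library of conflicting code, the first, reaches into the Npm1 Flt3 range. Dendritic cell markers summed to 2681 to 12647 CPM in Npm1 Flt3 LSK and 251 to 337 CPM in Dnmt3a Flt3 LSK, and to 9501 to 19459.6 CPM in Npm1 Flt3 GMP and 52.9 to 81.4 CPM in Dnmt3a Flt3 GMP, with all 8 markers detected in each group. The late neutrophil markers summed to 222 to 943 CPM in Npm1 Flt3 GMP and 8.80 to 10.0 CPM in Dnmt3a Flt3 GMP, and the basophil and mast cell markers to 132 to 359 CPM in Npm1 Flt3 GMP and 1591 to 1857 CPM in Dnmt3a Flt3 GMP. Their part in the members' differences was not tested.

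Within Npm1 Flt3 mice the members divided by cell type. Epb4.1l4b, Tspan13, Cd48 and Tox were higher, and Cp, Tmem178 and Rab44 lower, in LSK than in GMP (7 of 10 passing in edgeR, 4 LSK against 4 GMP libraries), where 2.27% of all genes were called higher and 1.86% lower (3.06% and 1.14% with library totals alone). Epb4.1l4b averaged 153 ± 41.7 CPM in LSK and 35.8 ± 19.4 CPM in GMP (SD, n = 4 each), a log2 change of 1.90 ± 0.33 (SE, adjusted p = 0.013) in edgeR. Tspan13 averaged 298 ± 40.7 CPM in LSK and 127 ± 15.7 CPM in GMP (SD, n = 4 each), a log2 change of 1.04 ± 0.16 (SE, adjusted p = 0.00582) in edgeR. The LSK libraries of both genes lay above all the GMP libraries.

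Cp averaged 38.6 ± 9.11 CPM in LSK and 119.7 ± 12.2 CPM in GMP (SD, n = 4 each), a log2 change of -1.82 ± 0.20 (SE, adjusted p = 0.000884) in edgeR. Cp and Tspan13 kept their calls in all 8 fits that left out 1 library; the other 5 each lost theirs in at least 2. The remaining log2 changes were 1.39 ± 0.31 for Tox (adjusted p = 0.0374), 0.84 ± 0.19 for Cd48 (adjusted p = 0.0337), -4.11 ± 0.87 for Tmem178 (adjusted p = 0.029) and -0.93 ± 0.23 for Rab44 (adjusted p = 0.0491). Tmem178 did not pass with the library code as a replicate block (-4.25, adjusted p = 0.13), and Rab44 not with median-ratio or library-total scaling (adjusted p 0.0518 and 0.0817). Itgb7, Lsp1 and Rasgrp4 overlapped between the cell types and did not pass, at -0.46 ± 0.30, -0.45 ± 0.34 and -1.19 ± 0.63.

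Related genes of the members' families were counted in the same contrast. Of 63 relatives in 9 lists, 47 were tested in LSK, where 7 rose and 13 fell in Flt3 against WT with a median log2 change of -0.15 (edgeR), and 39 in GMP, where 10 rose and 6 fell with a median of 0.09. Of all genes, 6.89% were called higher and 8.07% lower in LSK, and 13.1% and 13.2% in GMP. With library totals alone 7 relatives rose and 15 fell in LSK, and again 10 and 6 in GMP. Of the 12 tetraspanins tested in LSK beside Tspan13, 6 fell and none rose, among them Cd81 at -0.98 ± 0.11 (SE, adjusted p = 1.21e-07) and Tspan32 at -0.88 ± 0.11 (SE, adjusted p = 1.97e-06). In GMP 1 rose and 3 fell, with Cd63 at -1.73 ± 0.15 (SE, adjusted p = 8.57e-13) and Cd81 at -0.93 ± 0.13 (SE, adjusted p = 2.58e-07). Cd63 encodes a protein of lysosomes and granules.

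Of the 7 integrin subunits tested beside Itgb7, 3 rose in GMP and 1 rose in LSK. Itgae, the alpha E subunit that pairs with beta 7, stood at 4.82 to 194 CPM over the Flt3 GMP libraries and had no count in WT GMP, a pooled level at least 133-fold higher than 3 counts over the WT libraries would give. In LSK it stood at 8.62 to 140.3 CPM in Flt3 libraries against 3 counts in WT, a ratio of 79.9 with an exact 95% counting interval of 27.2 to 388. Itgb2, the beta 2 chain of leukocyte integrins, rose in GMP by 1.03 ± 0.22 (SE, adjusted p = 0.000442), and Itgb1 fell in LSK, with a log2 change of -0.35 ± 0.11 (SE, adjusted p = 0.03).

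Of the SLAM family beside Cd48, 2 of 3 tested rose in GMP, where Cd244, the receptor for CD48, changed by 1.25 ± 0.38 (SE, adjusted p = 0.0119), and Slamf7 held 3.34 to 138 CPM in Flt3 libraries against 2 counts in WT, a ratio of 121 with an exact 95% counting interval of 33.4 to 999. In LSK 1 of 5 rose and 2 fell: Slamf1, a marker of stem cells, stood at 0 to 4.84 CPM in Flt3 libraries and 11.9 to 26.0 CPM in WT libraries, a log2 change of -5.81 ± 0.65 (SE, adjusted p = 2.51e-07), and Cd84 changed by -1.26 ± 0.21 (SE, adjusted p = 7.32e-05). In the copper and iron list Slc40a1, which encodes the iron exporter ferroportin, fell, with a log2 change of -6.40 ± 0.46 (SE, adjusted p = 1.63e-07) in LSK and -1.91 ± 0.40 (SE, adjusted p = 0.000246) in GMP, the opposite direction to Cp. Macrophage markers, a cell type known for ferroportin, summed to 11.3 to 58.8 CPM in Flt3 LSK and 244 to 1450.4 CPM in WT LSK, and their part was not tested.

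Of the Ras exchange factors beside Rasgrp4, 2 of 5 tested rose in LSK: Rasgrf2 held 98 counts in Flt3 libraries against 1 in WT, a ratio of 34.0 with an exact 95% counting interval of 5.96 to 1356, and Rasgrp2 changed by 0.58 ± 0.12 (SE, adjusted p = 0.000896). In GMP Rasgrp2, 1 of 2 tested, fell, changing by -0.60 ± 0.14 (SE, adjusted p = 0.000663). Of the Rab genes listed beside Rab44, the small GTPase genes Rab27a and Rab27b changed in LSK, by 0.83 ± 0.21 (SE, adjusted p = 0.00774) and -2.93 ± 0.52 (SE, adjusted p = 0.000158). Of the 6 leukocyte actin regulators tested beside Lsp1, 3 rose and 1 fell in GMP, with Wipf1 at 0.86 ± 0.24 (SE, adjusted p = 0.00539) and Arhgdib at -0.87 ± 0.18 (SE, adjusted p = 0.000169), and 1, Lcp1, rose in LSK by 0.43 ± 0.10 (SE, adjusted p = 0.00236). In the protein 4.1 list Epb4.1 changed by -0.68 ± 0.23 (SE, adjusted p = 0.04) in LSK and Epb4.1l2 by 0.91 ± 0.35 (SE, adjusted p = 0.0451) in GMP, and the 1 TOX relative tested did not pass in either cell type.

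After TAM the relatives moved with the scaling: of 63 tested, 12 were called higher and 18 lower with TMM (edgeR), and 35 higher and 6 lower with library totals alone. Of all genes, 10.1% were called higher and 21.3% lower with TMM, and 36.8% and 8.33% with library totals. The SLAM receptor gene Slamf7 and the ferroportin gene Slc40a1 were higher in plain CPM as well. Slamf7 stood at 300.3 to 399 CPM in TAM libraries and 40.8 to 52.5 CPM in vehicle libraries, a log2 change of 1.68 ± 0.38 (SE, adjusted p = 0.000879) with TMM. Slc40a1 stood at 88.1 to 212 CPM in TAM libraries and 6.51 to 12.3 CPM in vehicle libraries, a log2 change of 2.76 ± 0.43 (SE, adjusted p = 1.11e-05), again the opposite direction to Cp.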

How the data were processed

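Whole-number read counts per gene were used as the authors deposited them, 33924 rows in each of 2 tables. The submitters' processing notes name STAR, featureCounts and the mm10 build; versions, annotation and use of strand are not given in the sources used here. Per the labels' protocols, libraries were made with paired-end and single-end kits, and which library had which is not given. The 10 members, the lists and the tests were chosen with earlier results of these data known.

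Levels are CPM of each library's total. Differences are edgeR 4.0.16 quasi-likelihood tests (robust, TMM, filterByExpr; R 4.3.3) over all genes, with Benjamini-Hochberg adjustment at 0.05. SE is the log2 change divided by the square root of F. Each comparison was fitted on its own groups. DESeq2 1.42.0, median-ratio factors, library totals alone (added after seeing the data), no low-count filter, a replicate block, and fits without single libraries were alternatives. The code was tested on simulated data. Genes named are the 10 members, the 3 most correlated genes of each, and up to 2 called relatives per list and comparison.

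Replicates were compared before averaging: none of 52 pairs agreed within sampling noise (lowest chi-square per degree of freedom 2.35). LSK and GMP libraries of Npm1 Flt3 mice share library codes in 3 pairs (correlations of their deviations 0.0813 to 0.226), and the blocked fit uses the code. TAM and vehicle libraries share only a title number, and their codes all differ. Their same-numbered deviations correlated at 0.111 to 0.304 over 3 pairs, and differently numbered pairs were not compared. The blocked fit of TAM against vehicle thus pairs libraries by number alone. The near-empty library stayed in edgeR fits and was left out of levels. Intervals cover counting error only.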

Additional observations from a re-analysis of the deposited data

Results flagged for a closer look

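Lsp1 stood at 2748 CPM in Npm1 Flt3 GMP replicate 1, the highest of its group and far from the other 3 libraries; chance sets about 1 in 20 such groups apart, and 20 were examined. The slope of Tmem178 per week differed between LSK and GMP by -0.52 on the log2 scale (edgeR, adjusted p = 0.00611). That fit held the near-empty library and was run under no alternative setting. Without the 2-week libraries the GMP slope of Tmem178 was -0.017. Tspan13 differed in opposite directions in Flt3 against WT, by -0.76 in LSK and 0.88 in GMP on the log2 scale. That difference was not tested, because the gene was chosen on this contrast.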

How the results depend on the processing

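Counts of called genes moved by over 1.5 times under these alternatives. For Npm1 Flt3 LSK against GMP, 642 genes became 1636 with DESeq2 and 980 with all sorted groups in the fit. For Npm1 Flt3 against Dnmt3a Flt3 in LSK, 2251 became 4634 with DESeq2, 3465 with the replicate block and 3597 with the library of conflicting code kept, and the 5 members called became 8 with DESeq2. In GMP, 3571 became 2127 with the block and 5403 with that library kept; Epb4.1l4b and Tox lost their calls under the block (adjusted p 0.141 and 0.128 with edgeR). In LSK the block added Epb4.1l4b and Tmem178 (adjusted p 0.022 and 0.0262). For the LSK slope, 258 became 442 with DESeq2, 653 with no filter, 120 with the block, 1 without the 2-week and 673 without the 8-week libraries, and the 1 member called became 3, 0 with library totals, 0 with the block, 0 without the 2-week and 5 without the 8-week libraries. For the GMP slope, 1075 became 1806 with library totals, 1830 with no filter and 52 without the 2-week libraries, where the 6 members called became 0. For Flt3 against WT GMP, 2393 became 912 with DESeq2 (2314 without the near-empty library). The causes were not tested.

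Directions turned as follows. After TAM, with library totals, Lsp1 stood at 0.85 and Epb4.1l2 at 0.025. Cd48 between the second mutations in LSK stood at 0.014 with no filter and between -0.25 and 0.13 with 1 library left out. LSK slopes without the 2-week libraries were -0.048 for Cd48, -0.018 for Epb4.1l4b, 0.036 for Itgb7, 0.10 for Lsp1, -0.0091 for Rab44 and 0.36 for Rasgrp4, and Cd48 stood between -0.0015 and 0.026 with 1 library left out. GMP slopes with library totals were 0.021 for Cd48 and 0.028 for Rab44, without the 8-week libraries 0.012 and 0.0017, and without the 2-week libraries -0.017 for Tmem178 and 0.019 for Tspan13.

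With 1 library left out, called genes ranged from 5142 to 9876 for TAM (7 members in number, not always the same), 249 to 653 for Npm1 Flt3 LSK against GMP (2 to 7 members), 433 to 2554 and 992 to 3523 for Npm1 Flt3 against Dnmt3a Flt3 in LSK and GMP (2 to 6 and 5 to 8 members), 59 to 505 and 611 to 1261 for the LSK and GMP slopes (0 to 2 and 4 to 7 members), and 1049 to 1596 and 1557 to 2569 for Flt3 against WT in LSK and GMP (13 to 21 and 11 to 19 relatives). For TAM, 6 members were called in every such fit. Without TAM replicate 1, TAM replicate 3 or vehicle replicate 2, Itgb7 lost its call as lower and Tspan13 was called higher. Genes called higher and lower numbered 2544 and 5382 after TAM (9294 and 2105 with library totals), 353 and 289 for Npm1 Flt3 LSK against GMP (475 and 177), 69 and 189 for the LSK slope (209 and 121), 256 and 819 for the GMP slope (1246 and 560), 682 and 798 for Flt3 against WT LSK (492 and 1145), and 1191 and 1202 for Flt3 against WT GMP (1661 and 852; 1580 and 782 with median-ratio factors). Library totals put the median gene at 0.20 for Npm1 Flt3 LSK against GMP, -0.12 for Flt3 against WT LSK and 0.17 for GMP. The block also changed the calls of Tspan13 after TAM, Tmem178 between Npm1 Flt3 LSK and GMP, Tmem178 for the LSK and GMP slopes (adjusted p 0.0519 and 0.053 with edgeR) and Tspan13 for the GMP slope (adjusted p 0.0701), and no other member's. Npm1 Flt3 and Dnmt3a Flt3 libraries, and those of different weeks, share only a number (correlations of same-numbered deviations -0.0119 to 0.0193 in LSK and -0.181 to -0.103 in GMP for the second mutations). Cp, Rasgrp4 and Tox had no count in WT GMP, so their levels there are known only as upper limits.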

Other observations

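The members' relatives were also compared between the second mutations. In LSK 9 of 63 tested were higher and 2 lower in Npm1 Flt3 than in Dnmt3a Flt3, and in GMP 13 of 60 were higher and 5 lower (edgeR), where 7.8% of all genes were higher and 3.76% lower in LSK, and 12.5% and 8.22% in GMP. Itgae, the alpha E partner of integrin beta 7, changed by 6.23 ± 0.57 (SE, adjusted p = 0.000549) in LSK and 6.32 ± 0.69 (SE, adjusted p = 0.00149) in GMP. The leukocyte integrin gene Itgb2 changed by 2.36 ± 0.36 (SE, adjusted p = 0.00415) in LSK and 2.17 ± 0.39 (SE, adjusted p = 0.00893) in GMP. The SLAM receptor gene Slamf7 changed by 5.43 ± 0.57 (SE, adjusted p = 0.000883) in LSK and 8.82 ± 0.58 (SE, adjusted p = 0.000277) in GMP. Rasgrp3, a Ras exchange factor, changed by 5.62 ± 1.01 (SE, adjusted p = 0.00815) in LSK and 6.21 ± 1.01 (SE, adjusted p = 0.00626) in GMP. Dendritic cell markers moved in the same direction, and their part was not tested.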
